A study of Mus musculus with 60 samples.

Results

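Of the 63 genes in 8 families of amino acid and peptide transporters, only Slc1a5, Slc15a2 and Slc7a1 had a probe set that differed between the strains after adjustment, and on that probe set the mean signal of NOD mice was the lowest. This held for 1 probe set of each gene: a second probe set of Slc1a5 was higher in every NOD mouse than in every control mouse at 2 weeks, and the other probe sets of Slc15a2 did not separate the strains. The Slc7a1 call was made at 2 weeks only and was lost in 11 of 26 alternative fits. NON, as the high one, was the odd strain out for Slc7a1. The genes were those with a single symbol in the array annotation that began with Slc1a, Slc3a, Slc6a, Slc7a, Slc15a, Slc36a, Slc38a or Slc43a and ended in a number, out of 18193 genes named in this way. They were measured by 126 of the 45037 probe sets of the arrays, 71 on the 430A array and 55 on the 430B array. Expression was measured in spleen leukocytes of 30 female mice, collected without culture from 5 NOD, 5 NON and 5 C57BL/6 (C57) mice at 2 weeks of age and from 5 mice of each strain at 4 weeks. NOD is a model of autoimmune diabetes, the closely related NON strain resists the disease, and C57 is a control strain of more distant origin. The study asked how the immune cells of young NOD mice differ from those of both controls. The mice carried no transgene and received no treatment, and the cells were an unfractionated mixture, so that fewer cells of a type and less RNA per cell cannot be told apart.

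Amino acids cross membranes on carriers that differ in their substrates and in the ions they use. Lymphocytes that start to divide are known to raise the uptake of glutamine, of large neutral amino acids and of arginine, through Slc1a5, the dimer of Slc7a5 with Slc3a2, and Slc7a1. Other carriers sit on lysosomes, where they pass amino acids and peptides to the cytosol and act on mTORC1, the kinase complex that couples growth to nutrients, or on receptors of innate immunity.

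Signals were those of MAS 5.0, on a linear scale. Probe sets that reached a signal of 50 in 5 or more mice were kept, among them 99 member probe sets of 55 genes. The 8 genes with no kept probe set were Slc1a6, Slc6a4, Slc6a12, Slc6a15, Slc6a16, Slc15a1, Slc15a5 and Slc38a4, and the highest signal of any of their 9 probe sets in any mouse was 129. The Slc6a family, which includes carriers of neurotransmitters, had 14 of 18 genes with a kept probe set. All 15 Slc7a genes, both Slc3a genes, all 4 Slc36a genes and all 3 Slc43a genes had one, as did 6 of 7 Slc1a, 8 of 9 Slc38a and 3 of 5 Slc15a genes. The signal of a probe set depends on its probes, so levels of different probe sets were not ranked against each other.

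The markers of 9 cell types were summed in each mouse to describe the mixture. The sum of 9 B cell genes lay between 13264 and 40049 and that of 9 T cell genes between 1031 and 11614. Dividing cells stood out in 2 week old NON mice, where the sum of 10 markers was 25409 to 33626, against 14306 to 25936 in NOD and 13296 to 20933 in C57. Markers of macrophages and dendritic cells had medians of 8216 in NOD, 7889 in NON and 4416 in C57 at 2 weeks, and of 15555, 9854 and 8286 at 4 weeks. The NOD median was the lowest of the 3 strains for 0 of the 9 lists at 2 weeks and for 1, B cells, at 4 weeks. The ratio of the 3' to the 5' probe set of Gapdh, a sign of RNA degradation where it is high, reached 4 in NON mice at 2 weeks and 1.06 in NOD mice of that age. C57 mice of 2 weeks reached 2.17. The highest ratios at 4 weeks were 1.3 in NOD, 3.15 in NON and 2.4 in C57. Its medians in NOD, NON and C57 were 0.79, 0.88 and 1.26 at 2 weeks and 0.91, 1.28 and 1.26 at 4 weeks. In NOD replicate 3 at 4 weeks, the median correlation with the mice of its group was 0.739, against 0.847 or more in the others. For the probe sets that passed the test between strains, fits without each mouse and with the Gapdh ratio are given further below. For other probe sets such fits are not given one by one.

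The 3 strains were compared at each age by the limma F-test over all 38293 kept probe sets. At 2 weeks, 3 of the 99 member probe sets passed an adjusted p of 0.05, which is 3.03%, and 1.66% of all kept probe sets did. At 4 weeks, 2 passed (2.02%), against 1.51% of all. At an unadjusted p under 0.05 there were 14 (14.1%, also 14.1% of all) at 2 weeks and 11 (11.1%, against 13.4% of all) at 4 weeks. The difference of NOD from the mean of the control strains, on the log2(signal + 10) scale, had a median of 0.05 over the members and 0.06 over all probe sets at 2 weeks, and of 0.09 and 0.05 at 4 weeks. It lay within 0.5 of 0 in 80 of the 99 member probe sets at 2 weeks and in 78 at 4 weeks, with a median standard error of 0.27 and 0.25. Every NOD mouse was below every control mouse in 3 of the 99 member probe sets at 2 weeks, beside 0.274% of all kept probe sets, and in 2 at 4 weeks, beside 0.436% of all. These were the ones that passed the test at each age. Every NOD mouse was above every control mouse in 1 member probe set at 2 weeks, of Slc1a5 as well (0.253% of all), and in 0 at 4 weeks (0.308% of all).

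**Figure D1:**
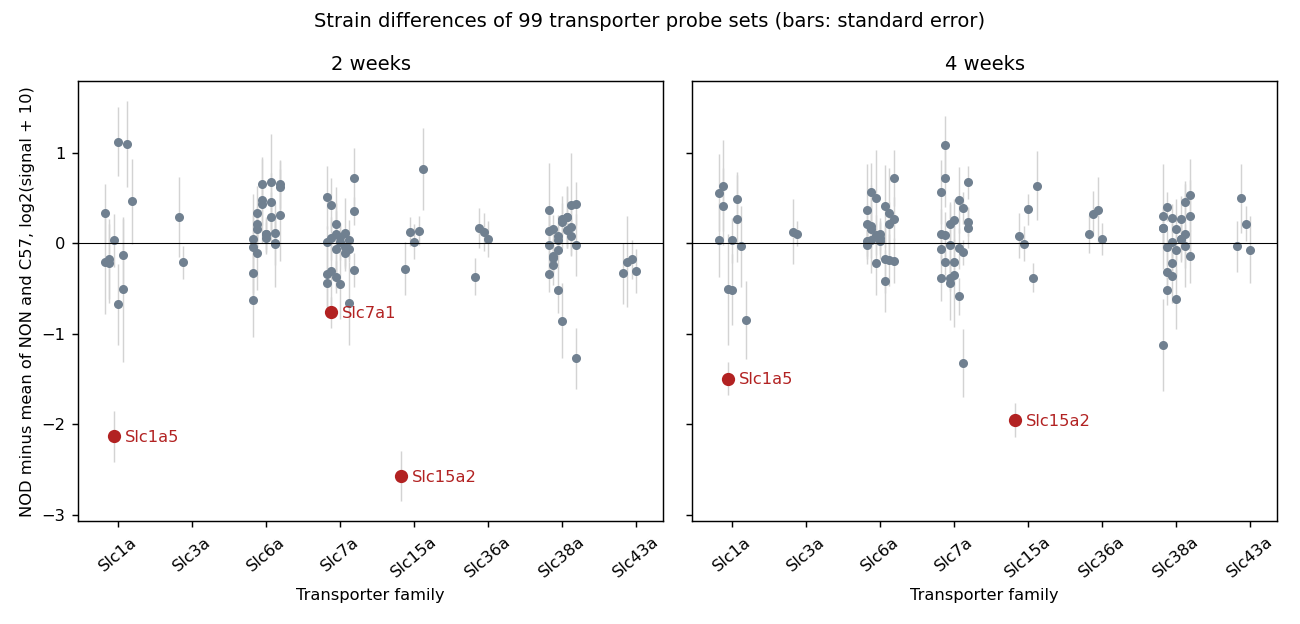
Difference of the NOD mean from the mean of the NON and C57 means, in log2(signal + 10), for the 99 kept probe sets in 8 families at 2 weeks (left) and 4 weeks (right). Each point is a probe set, with its standard error as a bar, and red points passed the limma F-test at an adjusted p of 0.05: Slc1a5, Slc15a2 and Slc7a1 at 2 weeks, and Slc1a5 and Slc15a2 at 4 weeks.

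Slc1a5 encodes ASCT2, a sodium-dependent exchanger of glutamine and other neutral amino acids. On probe set 1416629_at, the signals of the NOD mice at 2 weeks were 60, 120, 105, 119 and 227. The NON mice had 503, 674, 622, 333 and 448, and the C57 mice 337, 536, 538, 804 and 921. Every NOD mouse was below every control mouse. The mean of the NOD mice was 126 ± 61.4, while NON had 516 ± 136 and C57 had 627 ± 234 (SD, n = 5 each), or 4.53-fold lower in NOD than the mean of the controls (log2 difference -2.14, standard error 0.28, limma adjusted p = 0.0019).

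At 4 weeks the pattern was the same. The NOD mice had 151, 175, 212, 152 and 165 on this probe set, with replicate 3 the highest. The NON mice had 392, 581, 567, 460 and 582, and the C57 mice 341, 414, 688, 467 and 582. No control mouse came down to the highest NOD value. The mean was 171 ± 25.1 in NOD, 2.97-fold below that of the controls, which were at 516 ± 86 and 498 ± 138 (SD, n = 5; log2 difference -1.50, standard error 0.18, limma adjusted p = 0.0011).

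The other Slc1a5 probe set, 1440379_at, did not show this. At 2 weeks its signals in NOD mice were 446, 390, 491, 728 and 471. Those in NON mice were 332, 297, 127, 274 and 333, and those in C57 mice 326, 207, 219, 337 and 43.1. Here every NOD mouse was above every control mouse. The NOD mean of 505 ± 130 was 2.03-fold that of the controls (SD, n = 5; log2 difference 1.13, standard error 0.38), with an unadjusted p of 0.022 and an adjusted p of 0.26 from limma.

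At 4 weeks the strains overlapped on 1440379_at. The NOD mice had 188, 345, 327, 248 and 404, the NON mice 239, 303, 306, 441 and 458, and the C57 mice 264, 348, 211, 126 and 322. The means were 302 ± 84.8, 349 ± 95.2 and 254 ± 89.1 (SD, n = 5; limma adjusted p = 0.67). Its paralogue Slc1a4, which carries alanine, serine and cysteine, was near the floor, with 1 of 3 probe sets kept and group means of that probe set from 19.3 to 56.5.

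Slc15a2 encodes PEPT2, a proton-coupled carrier of dipeptides and tripeptides that also takes up bacterial peptides. On probe set 1417600_at the NOD mice at 2 weeks had 33.8, 64.3, 13.4, 41.4 and 67.9, close to the floor of 50. The NON mice had 344, 433, 448, 317 and 346, and the C57 mice 277, 284, 169, 124 and 298. NOD overlapped neither control strain. The NOD mean was 44.2 ± 22.5, against 378 ± 58.8 for NON and 231 ± 78.6 for C57 (SD, n = 5). With the 3 NOD signals under the floor set to 50, NOD was at least 5.39-fold lower than the control mean (on the signals as deposited, log2 difference -2.57, standard error 0.28, limma adjusted p = 0.00022).

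In 4 week old mice the order of the strains was the same, with NON farther from C57. The NOD mice had 74.2, 70.4, 83.4, 84.5 and 104, and the C57 mice 220, 153, 106, 179 and 227. The NON mice had 601, 839, 820, 535 and 767, so that every NON mouse was above every C57 mouse. The highest NOD value, in replicate 5, was just under the lowest C57 value, in replicate 3. The means were 83.2 ± 12.8, 713 ± 136 and 177 ± 49.9 in NOD, NON and C57 (SD, n = 5; log2 difference of NOD from the controls -1.96, standard error 0.19, limma adjusted p = 4.8e-06). The odd strain out was NOD, as the low one, at 2 weeks and NON, as the high one, at 4 weeks.

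The other Slc15a2 probe sets did not separate the strains. At 2 weeks, 1447808_s_at had 688, 588, 452, 480 and 475 in NOD, 489, 664, 436, 443 and 529 in NON, and 578, 414, 409, 479 and 447 in C57. The strains overlapped. At 4 weeks the signals were 534, 560, 497, 503 and 446 in NOD, 601, 350, 480, 757 and 422 in NON, and 445, 661, 359, 639 and 512 in C57, again with overlap (limma adjusted p = 0.83 at 2 weeks and 1 at 4 weeks). The third probe set, 1424730_a_at, was dim. It had 12, 83.7, 72.7, 46.4 and 58.9 in NOD at 2 weeks, 50.9, 46.3, 81.3, 88.6 and 93 in NON and 40.8, 47.2, 55.2, 69.9 and 53.3 in C57. At 4 weeks it had 76, 31.1, 66.3, 75.5 and 96.2 in NOD, 41.9, 71.5, 65.4, 79.3 and 33.4 in NON and 84.4, 50.2, 93.9, 56.8 and 57.7 in C57, and the strains overlapped at both ages.

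**Figure D2:**
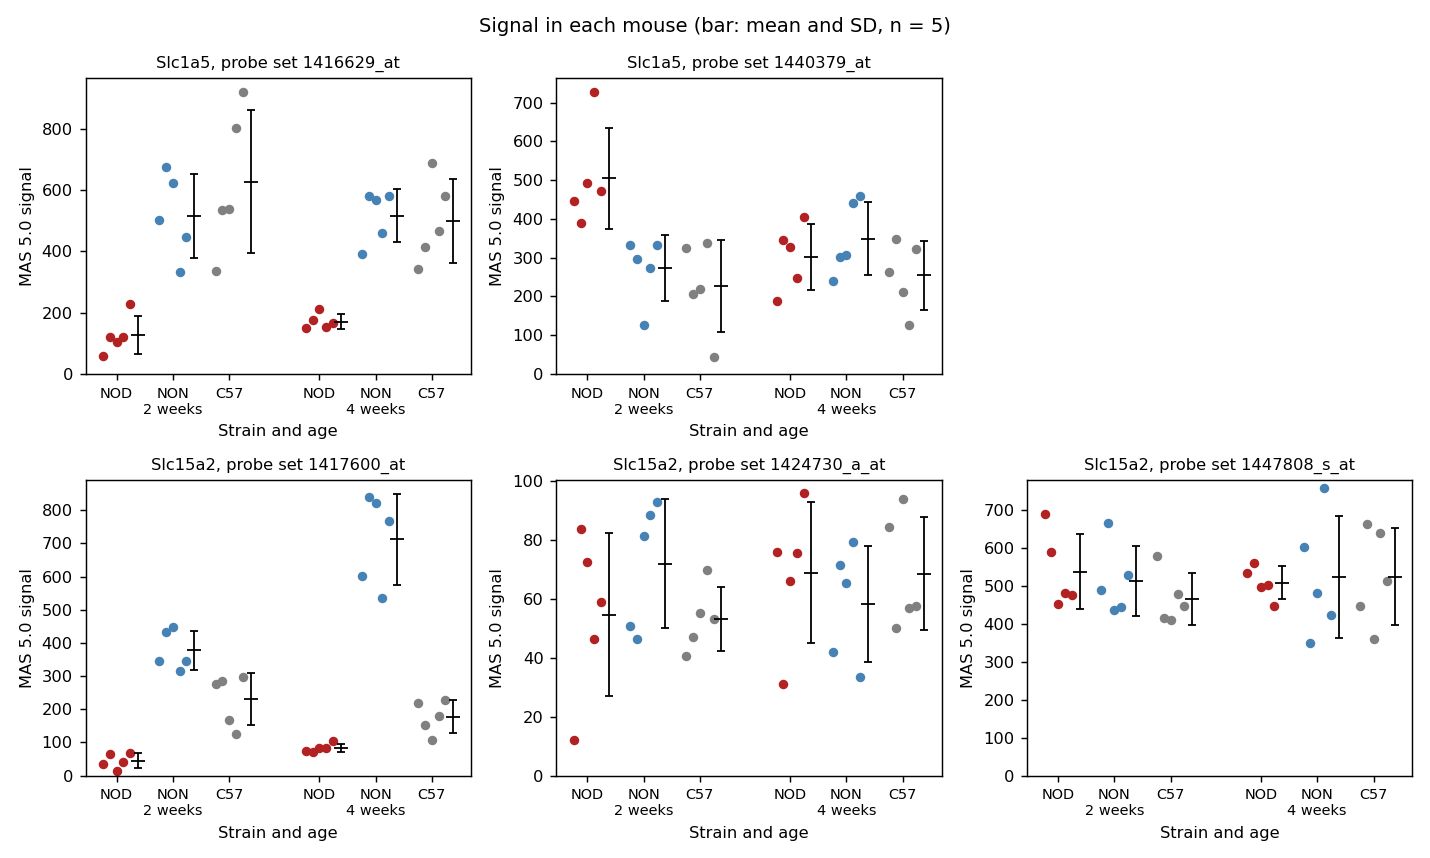
MAS 5.0 signal of each kept probe set of Slc1a5 (upper row) and Slc15a2 (lower row) in every mouse, by strain and age, with the mean and SD of each group (n = 5) as a black bar; the signal axes start at 0. On 1416629_at and 1417600_at all NOD mice lay below all control mice of their age, on 1440379_at all NOD mice lay above the controls at 2 weeks and overlapped them at 4 weeks, and on the other Slc15a2 probe sets the strains overlapped.

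The agreement between probe sets was examined in the 25 genes with 2 or more kept probe sets, by setting the brightest probe set of each gene against every other one, which gave 44 pairs. The difference of NOD from the controls had the same sign in both probe sets in 25 pairs (56.8%) at 2 weeks and in 30 (68.2%) at 4 weeks. Of the 16 pairs in which both probe sets had a mean signal of at least 200, 10 had the same sign at 2 weeks and 13 at 4 weeks. Whether NOD mice and the 10 control mice differed in the gap between 2 probe sets was tested by an exact two-sided permutation test over the 15 mice of each age, with adjustment over the 44 pairs, and 5 pairs at 2 weeks and 4 at 4 weeks had an unadjusted p under 0.05. Most pairs thus showed no difference in the gap that this number of mice could resolve. How often pairs of probe sets of other genes agree or differ in these ways is not given here.

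The pairs that passed the adjustment were those of Slc1a5 and Slc15a2. At 2 weeks the gap of 1416629_at over 1440379_at was lower in NOD than in controls for Slc1a5 (a log2 difference of -3.26, exact permutation p = 0.00033, adjusted p = 0.0073). The gap of 1447808_s_at over 1417600_at was higher in NOD for Slc15a2 (log2 difference 2.71, exact permutation p = 0.00033, adjusted p = 0.0073), and 0.00033 is the smallest p that 3003 labellings can give. At 4 weeks the Slc1a5 difference was -1.53 (exact permutation p = 0.00033, adjusted p = 0.015), and that of Slc15a2 was 1.95 (exact permutation p = 0.0043, adjusted p = 0.095). Which stretch of each transcript these probe sets match was not analysed here.

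Over the 30 mice, the log2 signals of 2 probe sets of a gene correlated with a median r of 0.1 over the 44 pairs, from -0.5 to 0.76, as a description that mixes strain, age and spread within groups. The lowest value was that of Slc1a5 and the highest that of the bright Slc7a1 probe sets, 1454991_at and 1454992_at. Only 5 pairs exceeded 0.5. The others among them belonged to Slc7a7 (0.53), to Slc38a10 (0.56 for 1456241_a_at and 1434617_x_at) and to Slc38a9 (0.61 and 0.51, for 1456338_at with 1436456_at and 1455360_at). In the 28 pairs with a probe set under a mean signal of 200 the median r was 0.09, and in the other 16 it was 0.21.

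**Figure D3:**
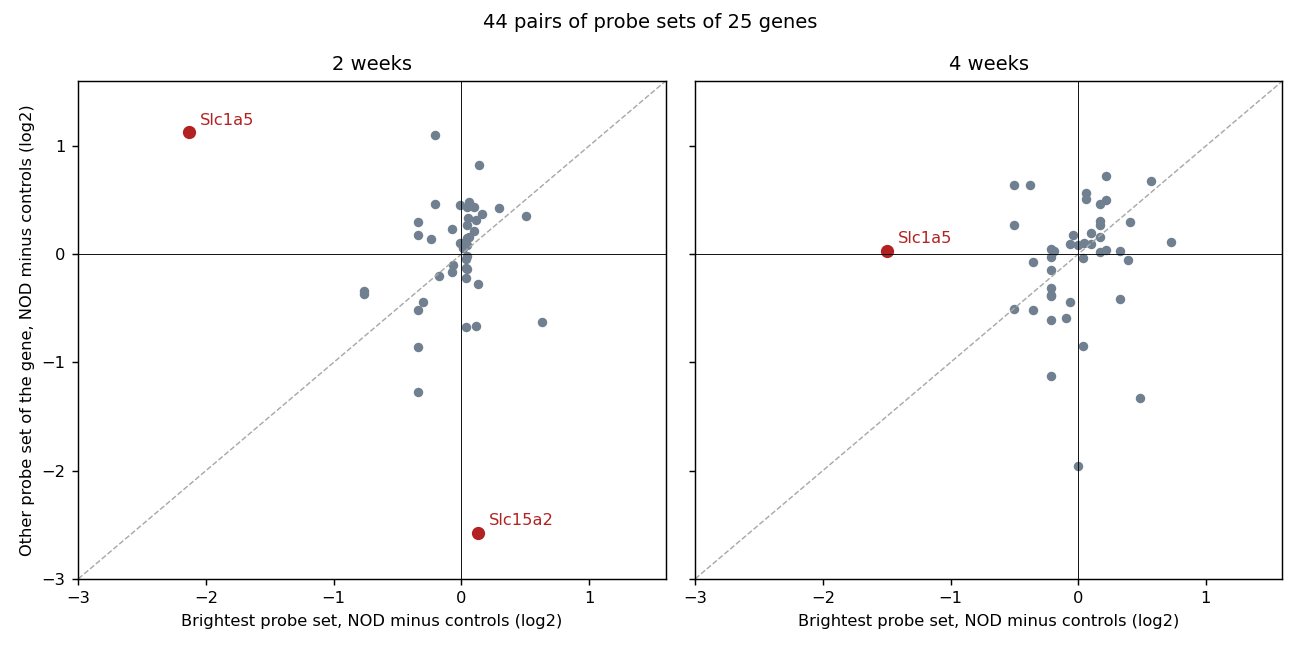
Difference of NOD from the mean of the controls in log2(signal + 10) for the brightest probe set of a gene (x axis) and for another of its probe sets (y axis), for 44 pairs of 25 genes at 2 weeks (left) and 4 weeks (right). Pairs on the dashed line have equal differences; red pairs differed at an adjusted p of 0.05 in the exact permutation test, Slc1a5 and Slc15a2 at 2 weeks and Slc1a5 at 4 weeks.

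Slc7a1 encodes CAT1, a carrier of arginine, lysine and ornithine, and was measured at high signal. At 2 weeks its probe set 1454991_at had 909, 1215, 1265, 1335 and 1214 in NOD. It had 2183, 2630, 2007, 1994 and 3652 in NON, and 1688, 1531, 1427, 1904 and 1750 in C57. Every NON mouse was above every mouse of the other strains, and every NOD mouse was below every C57 mouse. The means of NOD, NON and C57 were 1187 ± 163, 2493 ± 697 and 1660 ± 186 (SD, n = 5; log2 difference of NOD from the controls -0.76, standard error 0.17, limma adjusted p = 0.03), with NON as the odd strain out.

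This call was near the threshold. The adjusted p was 0.057 with the Gapdh 3'/5' ratio as a covariate and 0.067 after quantile normalization, and it lay between 0.05 and 0.061 when any of the 5 NOD mice, NON replicates 1 or 5, or C57 replicate 5 was left out. The difference kept its sign throughout, between -0.62 and -0.89. The probe set 1454992_at had means of 1463 ± 288, 2152 ± 493 and 1664 ± 273 in NOD, NON and C57 (SD, n = 5), with an unadjusted p of 0.043 and an adjusted p of 0.34, and the third, 1421533_at, was dim with group means from 54.4 to 71.3. NON mice of 2 weeks also had the highest marker sums for dividing cells given above, and the part of these cells in the signal was not tested.

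At 4 weeks the strains were close on 1454991_at. The NOD mice had 1188, 1380, 1194, 1203 and 1437, the NON mice 1257, 1452, 1558, 1271 and 1402, and the C57 mice 1234, 1727, 1732, 1798 and 1491. The ranges of NOD and NON overlapped, and 3 C57 mice were above all others (limma adjusted p = 0.59). Within NON, the mean was 1.80-fold higher at 2 weeks than at 4 weeks on this probe set and 1.61-fold on 1454992_at, with unadjusted p of 0.0031 and 0.0063 and adjusted p of 0.2 and 0.25 from limma.

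Slc7a7 encodes y+LAT1, which pairs with Slc3a2, exports arginine and is known in macrophages. C57 had the lowest mean on both of its probe sets at both ages, but neither passed the adjustment. On 1417392_a_at the means at 4 weeks were 369 ± 92.3, 263 ± 28 and 190 ± 40.4 in NOD, NON and C57 (SD, n = 5; log2 difference of NOD from the controls 0.68, standard error 0.18, limma adjusted p = 0.095). The mice had 413, 237, 309, 456 and 430 in NOD, 289, 230, 259, 295 and 244 in NON, and 210, 248, 165, 181 and 144 in C57. All but 1 of the NOD mice were above all control mice, and the exception was replicate 2. At 2 weeks the means were 261 ± 57, 232 ± 23.9 and 170 ± 21.3 (adjusted p = 0.22). On 1447181_s_at they were 807, 848 and 443 at 2 weeks and 952, 680 and 603 at 4 weeks (adjusted p = 0.43 and 0.67). The summed markers of macrophages and dendritic cells had the same order of medians as the means of 1417392_a_at at both ages, and their part in these values was not tested.

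**Figure D4:**
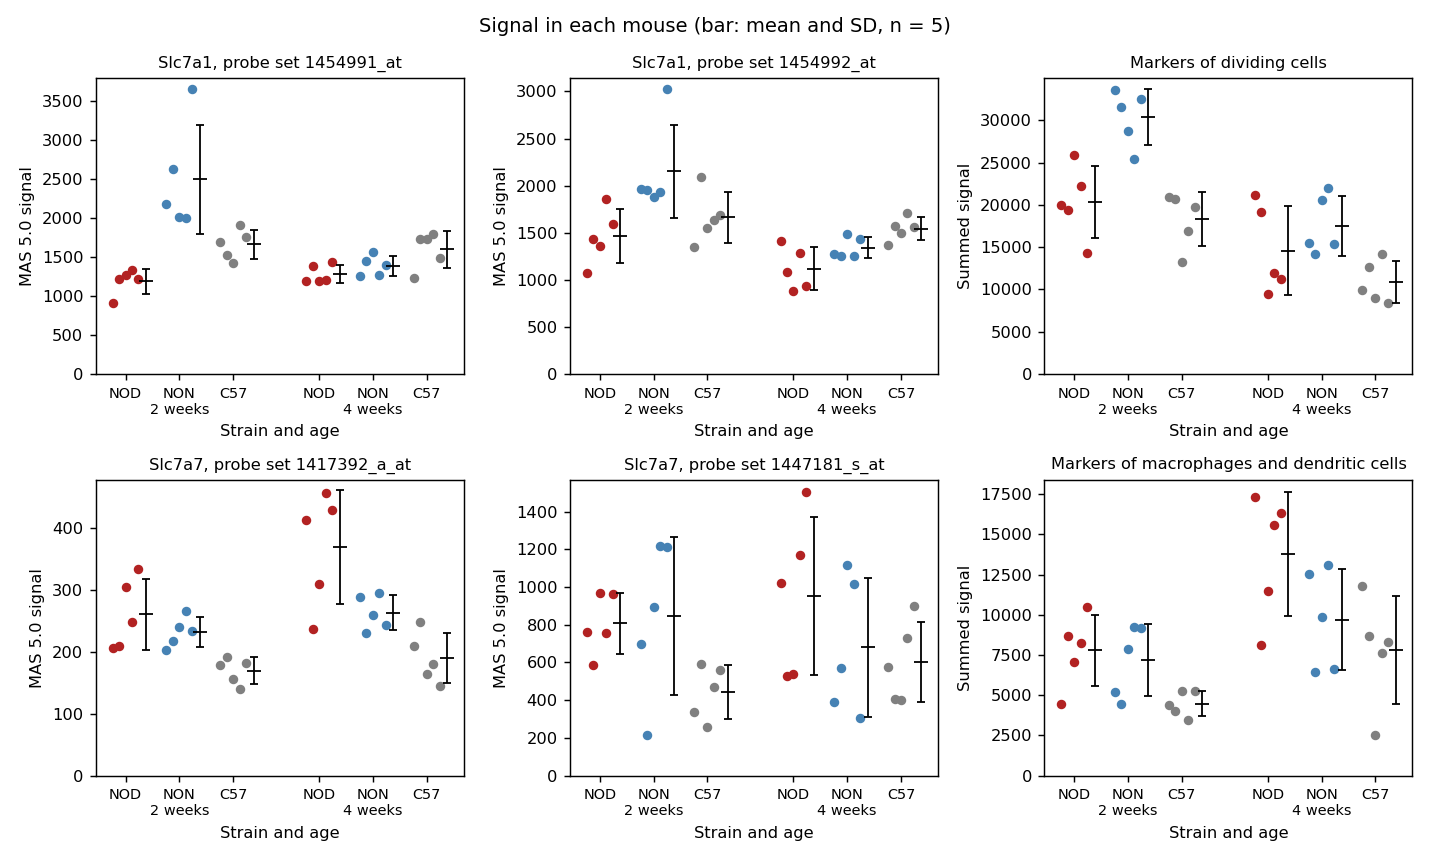
Signal of Slc7a1 probe sets with the summed signal of 10 markers of dividing cells (upper row), and of Slc7a7 probe sets with the summed signal of 10 markers of macrophages and dendritic cells (lower row), in every mouse by strain and age; black bars are the mean and SD (n = 5) and all axes start at 0. NON mice of 2 weeks were highest on 1454991_at and had the highest median of the dividing cell sum, and 4 of 5 NOD mice of 4 weeks were above all control mice of that age on 1417392_a_at.

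The carriers of large neutral amino acids did not differ after adjustment. Slc3a2, the heavy chain that brings Slc7a light chains to the cell surface, had group means from 738 to 984 and a difference of NOD from the controls of -0.21 and 0.11 at 2 and 4 weeks on the log2 scale (standard errors 0.18 and 0.14, limma adjusted p = 0.75 and 0.89). Slc7a5, its leucine-carrying partner LAT1, had means of 177 ± 74.3, 341 ± 177 and 175 ± 91.7 at 2 weeks in NOD, NON and C57 (SD, n = 5; adjusted p = 0.41). Slc43a2, a carrier of the same kind of amino acids, was bright on 1439965_at, with means from 1470 to 1940 (adjusted p = 0.88 and 0.59). Slc43a1 had 820 ± 342 in NOD, 1473 ± 756 in NON and 702 ± 166 in C57 at 2 weeks (adjusted p = 0.38). Slc7a6, the partner of Slc3a2 known as y+LAT2, had means from 121 to 212 on 1433467_at, where C57 was highest at both ages (adjusted p = 0.7 and 0.24). Slc7a8 was dim, at 95.8 ± 25.4 in NOD against 53.1 ± 32.4 and 34 ± 11.7 at 4 weeks (adjusted p = 0.2). Slc7a11, which imports cystine in exchange for glutamate, stayed near the floor, with group means from 10.9 to 74.4 over its 2 probe sets.

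The sodium-coupled carriers of the Slc38a family take up glutamine, alanine and serine. Slc38a1 was measured at high signal on 1454764_s_at, with means of 2535 ± 796, 2409 ± 789 and 3656 ± 719 in NOD, NON and C57 at 2 weeks and 2681 ± 725, 2362 ± 416 and 3103 ± 511 at 4 weeks (SD, n = 5; limma adjusted p = 0.35 and 0.62). C57 had the highest and NON the lowest mean at both ages, on 1415903_at as well. On 1415903_at at 4 weeks, however, the C57 lead over NOD rested on replicate 5, at 845. The other C57 mice had 366, 287, 399 and 376, and the NOD mice 331, 258, 400, 396 and 411. The T cell marker sums had the same order, with medians of 4258, 2108 and 6070 in NOD, NON and C57 at 2 weeks and 7043, 4510 and 9515 at 4 weeks, and their part in these values was not tested. Slc38a2, which cells deprived of amino acids are known to raise, had 759 ± 190 in NOD, 1098 ± 122 in NON and 1043 ± 138 in C57 at 4 weeks on 1426722_at (log2 difference -0.52, standard error 0.17, limma unadjusted p = 0.023, adjusted p = 0.28). The lowest NOD signal there, 548, was that of replicate 3, the mouse with the low correlation. On the brightest Slc38a2 probe set, 1429593_at, the log2 difference at 4 weeks was -0.36, and on 1429594_at it was -0.08. Slc38a5 had 234 ± 109, 388 ± 198 and 135 ± 32 at 2 weeks (unadjusted p = 0.015, adjusted p = 0.22), and the erythroid marker sums of that age had medians of 7756, 9458 and 5493, in the same order, with their part not tested.

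Slc38a9 is a lysosomal protein that senses arginine for mTORC1, and it was measured by 7 kept probe sets. On the brightest, 1456338_at, the group means lay between 1032 and 1360, and the strains did not differ after adjustment on any of the 7, with the lowest adjusted p at 0.38 (1455360_at at 4 weeks). Slc38a10, named here after its values were seen, had the largest difference in the family at 2 weeks, on 1434617_x_at, with 92 ± 41 in NOD against 209 ± 107 in NON and 276 ± 105 in C57 (SD, n = 5; log2 difference -1.27, standard error 0.33, limma adjusted p = 0.12). Its brightest probe set, 1456241_a_at, had 538 ± 176, 679 ± 136 and 640 ± 40.6 in the same mice. The probe sets of Slc38a10 differed in direction at 2 weeks. The log2 difference was -0.512 on 1427294_a_at and -0.855 on 1427295_at, but 0.295 on 1429979_a_at and 0.177 on 1429980_x_at.

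The genes named next, from the other families, did not differ between the strains after adjustment. Slc6a6, the taurine carrier, had means from 1804 to 2041 on 1437149_at, and NOD differed from the controls by 0.06 and 0.07 on the log2 scale (standard errors 0.18, limma adjusted p = 0.89 and 0.93). The Slc36a carriers of lysosomes and membranes, Slc36a1 and Slc36a4, had means from 378 to 516 and from 340 to 587. Slc15a3 and Slc15a4 move histidine and peptides out of lysosomes, and Slc15a4 is known to be needed for Toll-like receptor signals in B cells and dendritic cells. Slc15a3 had means from 146 to 202, with no difference after adjustment (adjusted p = 1 and 0.5). Slc15a4 had 448 ± 64.3, 522 ± 89.4 and 658 ± 95.8 at 4 weeks on 1448385_at, for NOD, NON and C57 respectively (SD, n = 5, limma unadjusted p = 0.028, adjusted p = 0.3). Its other kept probe set, 1441925_at, was dim, with a mean signal of 32.4 over the 30 mice, and went the other way at 4 weeks. The log2 difference of NOD from the controls was 0.639 there, against -0.379 on 1448385_at. At 2 weeks it was 0.825 and 0.141. None of the 23 Slc6a probe sets passed the adjustment, beside 1.66% of all kept probe sets at 2 weeks and 1.51% at 4 weeks. An unadjusted p under 0.05 was reached by 2 of them at 2 weeks and 0 at 4 weeks, beside 14.1% and 13.4% of all.

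The ages were compared within each strain by limma over the 10 mice of that strain, and no member probe set passed an adjusted p of 0.05 in any of them. In these fits few probe sets of any kind passed, namely 0.0157% of all in NOD, 0.0601% in NON and 0.107% in C57. A fit of all 30 mice called 2 in NON, 1454991_at and 1454992_at of Slc7a1. The share of all probe sets that this other fit called is not given here, and the shares above do not apply to it. At an unadjusted p under 0.05, 9 member probe sets differed in NOD (9.09%, against 7.49% of all), 6 in NON (6.06%, against 11.1%) and 8 in C57 (8.08%, against 8.22%). Whether the change with age differed between strains was tested by the interaction in all 30 mice. No member passed the adjustment, with a lowest adjusted p of 0.55, against 0.00261% of all probe sets, and 7 members had an unadjusted p under 0.05 (7.07%, against 6.9% of all).

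The lowest p for age in NOD belonged to Slc38a10 on 1434617_x_at, with 92 ± 41 at 2 weeks and 211 ± 23.6 at 4 weeks (SD, n = 5), 2.29-fold higher at 4 weeks (limma unadjusted p = 0.0012, adjusted p = 0.34). The means at 2 and 4 weeks were 209 and 207 in NON and 276 and 177 in C57. In NON the lowest was that of Slc15a2 on 1417600_at, 1.89-fold higher at 4 weeks than at 2 weeks (unadjusted p = 0.0012, adjusted p = 0.15). In NOD this probe set was at least 1.47-fold higher at 4 weeks with the floor of 50 set as above (unadjusted p = 0.017, adjusted p = 0.58), while C57 had 231 and 177. In C57 the lowest was that of Slc36a4, which had 587 ± 79.3 at 2 weeks and 340 ± 58 at 4 weeks in C57 (unadjusted p = 0.0013, adjusted p = 0.19), 545 and 424 in NOD and 483 and 494 in NON. Slc43a3, which carries purine nucleobases rather than amino acids and is named here after its values were seen, had 425 ± 210 and 169 ± 38.4 in NON (unadjusted p = 0.0018, adjusted p = 0.17), 214 ± 37.9 and 116 ± 33.9 in C57 (unadjusted p = 0.0029, adjusted p = 0.26) and 240 ± 70 and 157 ± 82.4 in NOD (SD, n = 5; limma). The summed markers of dividing cells were lower at 4 weeks than at 2 weeks in each strain, with medians of 12000 against 19945 in NOD, 15504 against 31631 in NON and 9975 against 19811 in C57, and their part in these values was not tested. On Slc38a9, all 7 probe sets had a lower mean signal, as deposited, in NOD at 4 weeks than at 2 weeks, and 6 of the 7 in NON and 5 in C57 had as well. An unadjusted p under 0.05 was reached by 3, 1 and 0 of them in NOD, NON and C57. Of all kept probe sets, 7.49%, 11.1% and 8.22% reached it in these strains. None of the 7 reached an adjusted p under 0.05, beside 0.0157%, 0.0601% and 0.107% of all. These probe sets read the same gene in the same mice and are not separate observations. The share of all probe sets with a lower mean at 4 weeks is not given here. Over all probe sets, the median log2 difference was -0.002 in NOD, 0.003 in NON and 0.027 in C57. NOD replicate 3 at 4 weeks had the lowest signal of its group on 1456338_at (775), 1436456_at (83.2) and 1455360_at (22.4). The age difference of these probe sets without this mouse is not given here. In pairs of probe sets of a gene, the change with age had the same sign in 24 of 44 in NOD, 24 in NON and 20 in C57.

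Genes that use or sense the transported amino acids were read from 4 lists, with the brightest kept probe set of each gene. Of 13 measured genes of glutamine and glutamate metabolism, none passed the adjustment at either age, beside 1.82% and 1.84% of the brightest probe sets of all 16209 genes at 2 and 4 weeks. At an unadjusted p under 0.05 there were 3 (23.1%) at 2 weeks and 1 (7.69%) at 4 weeks, beside 15.2% and 15.1% of all genes. The 3 were Asns, Aldh18a1 and Gclm, which make asparagine, proline and glutathione, and all had their highest mean in NON, at 756, 472 and 680, against 408, 248 and 369 in NOD and 250, 286 and 242 in C57. None of 28 genes of amino acid sensing by mTORC1 and none of 6 transcription factors known to drive transporter genes passed, with 4 (14.3%) of the former at each age and 0 and 1 of the latter at an unadjusted p under 0.05. Of the transcription factors, Myc had 432 ± 47.4 in NOD, 533 ± 108 in NON and 571 ± 103 in C57 at 2 weeks (SD, n = 5).

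Of the 22 measured genes of the response to amino acid starvation, 9 (40.9%) at 2 weeks and 6 (27.3%) at 4 weeks had an unadjusted p under 0.05, beside the 15.2% and 15.1% of all genes. Of the 9, the mean was highest in NON in 6, NOD in 2 and C57 in 1. The asparaginyl-tRNA synthetase gene Nars, named after its values were seen, had means of 559 ± 61.9, 799 ± 183 and 482 ± 40.3 for NOD, NON and C57 mice (SD, n = 5; limma unadjusted p = 0.0049, adjusted p = 0.13). The marker sums of dividing cells had their highest median in NON at that age, and their part in these values was not tested. After adjustment 0 of the 22 passed at 2 weeks and 1 at 4 weeks, beside 1.82% and 1.84% of all genes. The gene that passed was Trib3, a pseudokinase induced by Atf4. At 4 weeks the NOD, NON and C57 means of Trib3 were 152 ± 36.1, 193 ± 83.7 and 62.8 ± 23.2 (SD, n = 5; limma adjusted p = 0.036), so that C57 was the low strain. At 2 weeks they were 141 ± 27.5, 97.6 ± 32.8 and 64.3 ± 9.53 (adjusted p = 0.1). Atf4 itself, which drives the response, had 1108 ± 302 in NOD, 1476 ± 301 in NON and 1770 ± 115 in C57 at 4 weeks (unadjusted p = 0.013, adjusted p = 0.22). The median difference of NOD from the controls over this list was -0.13 at 2 weeks and 0.12 at 4 weeks on the log2 scale, beside 0.06 and 0.05 over all probe sets.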

How the data were processed

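RNA of each mouse was hybridised to a 430A and a 430B array (60 arrays). The deposited values are linear intensity signals that the authors made with MAS 5.0 from perfect match and mismatch probes, with each array scaled globally. A target of 100 is named in the methods, whereas a trimmed mean (2% off each end) gave 250 for all arrays. A scaling leaves differences in composition between mixtures in place, and low intensities are noisy, since the mismatch correction subtracts much of them. The build behind the annotation is not given in the sources used here, so no coordinates are given.

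Control probe sets were left out, and 45037 probe sets remained, of which 34945 had 1 gene symbol, 932 several and 9160 none; genes were named only from the first. Probe sets with a signal of at least 50 in at least 5 of 30 mice were kept (38293) and compared as log2(signal + 10), which understates differences of dim probe sets, while folds are ratios of mean signals. Strains (F-test within each age), ages (within each strain) and their interaction were tested with limma 3.58.1 in R 4.3.3, and p-values were adjusted by Benjamini-Hochberg across all 38293 probe sets. Scripts were tested on simulated data. The number of arrays limits the precision. Labels do not say more on the replicates than a number for each mouse.

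Genes named in the text are those with a called probe set or pair, the brightest of each family and 21 transporters best known in lymphocytes or named by the study. Members and lists were chosen with earlier results of these data known, so their patterns are no independent support. Alternatives were other pseudocounts, filters and normalizations, the methods' test (an analysis of variance), a trended robust fit, a replicate block, the Gapdh 3'/5' ratio as a covariate, a fit of all 30 mice and leaving out each mouse.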

Additional observations from a re-analysis of the deposited data

Results flagged for a closer look

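In 6 probe sets of Slc1a5, Slc15a2 and Slc7a1, 36 groups of 5 mice were searched for a mouse far from the others with Dixon's test, and 2 were found, close to the 1 in 20 that chance gives. On Slc1a5 1440379_at, NON replicate 3 at 2 weeks had a signal of 126.8, and the next lowest NON mouse had 273.9. On Slc7a1 1454991_at, NOD replicate 1 at 2 weeks had 908.8, and the next lowest NOD mouse had 1214.2. Without this mouse the difference of NOD from the controls was -0.67 (log2) with a limma adjusted p of 0.061, against 0.03 with it.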

How the results depend on the processing

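The low signals of NOD on Slc1a5 1416629_at and Slc15a2 1417600_at kept their direction and an adjusted p under 0.05 in all 26 alternatives at each age. Slc7a1 1454991_at at 2 weeks kept its direction and lost the call in 11 of 26, with adjusted p up to 0.067. The number of member probe sets called was 3 at 2 weeks and 2 at 4 weeks, and 2 to 3 at both ages in the alternatives and when each mouse was left out. With the replicate block it was 2 at each age, and Slc7a1 had an adjusted p of 0.064. Replicate numbers did not pair the mice (median correlation of deviations 0.037 for the same number and -0.009 for different numbers), so the block was not used elsewhere. In the fit of all 30 mice, Slc7a7 1417392_a_at was called as well at 4 weeks (3 in all), and 2 probe sets, both of Slc7a1, were called for age in NON, where the fit within the strain called 0. The shares of all probe sets that the fit of all 30 mice called are not given here. The other age counts and the interaction stayed at 0 in all alternatives run, those without 1 mouse included. The pairs of probe sets that disagreed numbered 2 at 2 weeks (2 to 3 when each mouse was left out) and 1 at 4 weeks (1 to 2, with 2 without NOD replicate 1). Median centring of each array moved the median difference of NOD from the controls over all probe sets from 0.062 to -0.054 at 2 weeks and from 0.048 to -0.056 at 4 weeks (log2), so the sign of differences near 0 depends on the scaling. Signals near the floor of 50 limit what the dim probe sets can show.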
